A study of Homo sapiens with 2 samples.

Results

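The 688 genes of human chromosome 7 with at least 100 reads over 2 RNA libraries are described here in the order of their start positions. They were selected on measured values, since the minimum of reads used both libraries and the position at which the chromosome is divided, 44.8 Mb on the hg19 build, was chosen on the ratios between them. The values on both sides of that boundary are therefore a description and carry no test. Of 1114 rows on the chromosome, 426 did not reach the minimum, 176 of them without a read, and the 688 genes make up part of the 13676 that reached it among 23398 rows in all. Below the boundary started 200 genes and above it 488.

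The libraries came from the wild-type SETD2 786-O line and from a 786-O line in which SETD2 was knocked out with a zinc finger nuclease, 1 library each. 786-O is an established line of clear cell renal carcinoma, and SETD2 encodes the histone methyltransferase that trimethylates lysine 36 of histone H3 along transcribed genes. Both lines were grown in RPMI1640 with 10% FBS with medium alone as their treatment. Whether the knockout line is a single clone is not given in the sources used here. With 1 library per line there is no replicate check, so that every difference is one between these libraries and not between conditions. Both hold RNA only, and no DNA measurement of either line was analysed here.

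Chromosome 7 carries the HOXA cluster of developmental transcription factors, the actin gene ACTB and the growth factor receptor gene EGFR on its short arm. The receptor gene MET, the cell cycle kinase gene CDK6 and the interval deleted in Williams syndrome lie on its long arm. Gain of the chromosome is a recurrent finding in renal carcinomas, above all in those of papillary type. Genes along a chromosome share few functions, and what they have in common is first of all their place.

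In genes, 62304084 fragments were counted for the wild-type line and 50670012 for the knockout line. A level is given as fragments or as CPM, the count relative to library size, here after scaling by trimmed means (TMM), and 3 fragments were worth 0.0494 and 0.0577 CPM. The ratio is knockout over wild type, with its exact conditional 95% counting interval, which covers counting error only. For SETD2 itself 4908 fragments in wild type stood against 1404 in the knockout, a ratio of 0.334. Markers of the renal carcinoma line summed to 7440 and 5035 CPM, with the cytoskeletal gene VIM and the kidney transcription factor PAX8 abundant and CA9 at 1 and 0 fragments. Of 10 leukocyte and 10 endothelial markers 2 each reached the minimum, with sums of at most 4.30 and 3.63 CPM, and the leukocyte gene CD3E was at 0 in both libraries. Fibroblast and pericyte markers summed to 26.9 and 51.2 CPM, and their part in the results below was not tested. In bulk RNA, fewer cells of a type and less RNA per cell cannot be told apart.

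The promoters of 4 genes are shown because these genes frame the results: ZMIZ2 and PPIA are the nearest genes on either side of the boundary, and, above it, IGFBP3 is an abundant gene that was lower and CPA4 the well-counted gene with the largest ratio. Each run covers 250 bases before to 50 bases after the RefSeq gene start on GRCh38.p14, read 5′ to 3′ on the gene's strand. The windows are chr7:44748321-44748620 on the plus strand for ZMIZ2, chr7:44796431-44796730 on the plus strand for PPIA, chr7:45921223-45921522 on the minus strand for IGFBP3 and chr7:130292911-130293210 on the plus strand for CPA4. Capitals mark matches, on either strand, to TATAAA, the core of the TATA box, to ACGTG or GCGTG, spellings of the hypoxia response core, and to TGANTCA, the core bound by AP-1.
ZMIZ2: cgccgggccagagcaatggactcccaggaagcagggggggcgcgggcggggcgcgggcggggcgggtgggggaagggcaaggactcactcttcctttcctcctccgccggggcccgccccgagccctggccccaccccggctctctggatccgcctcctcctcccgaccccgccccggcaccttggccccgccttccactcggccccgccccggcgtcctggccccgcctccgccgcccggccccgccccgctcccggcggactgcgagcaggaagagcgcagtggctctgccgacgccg
PPIA: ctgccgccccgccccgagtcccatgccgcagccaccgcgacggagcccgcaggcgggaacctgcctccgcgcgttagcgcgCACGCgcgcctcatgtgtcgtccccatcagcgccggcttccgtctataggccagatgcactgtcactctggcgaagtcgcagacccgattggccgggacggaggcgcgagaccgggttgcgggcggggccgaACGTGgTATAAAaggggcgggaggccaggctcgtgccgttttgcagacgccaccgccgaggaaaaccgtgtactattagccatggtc
IGFBP3: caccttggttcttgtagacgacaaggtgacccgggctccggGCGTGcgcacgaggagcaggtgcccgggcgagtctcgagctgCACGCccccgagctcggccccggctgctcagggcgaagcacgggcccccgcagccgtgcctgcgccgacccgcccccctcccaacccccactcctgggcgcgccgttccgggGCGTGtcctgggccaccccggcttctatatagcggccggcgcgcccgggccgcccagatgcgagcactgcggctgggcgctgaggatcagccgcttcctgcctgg
CPA4: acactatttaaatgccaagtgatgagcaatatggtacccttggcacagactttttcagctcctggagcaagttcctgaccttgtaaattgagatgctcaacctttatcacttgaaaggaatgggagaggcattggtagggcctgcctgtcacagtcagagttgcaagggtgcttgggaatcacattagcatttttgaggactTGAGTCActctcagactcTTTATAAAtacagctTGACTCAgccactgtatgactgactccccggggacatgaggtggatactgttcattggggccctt

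A match is a description of these letters and not a site. The CPA4 window held 46.3% GC and 1 CpG, against 79.3% and 36 for ZMIZ2, 68.7% and 40 for PPIA and 74.7% and 36 for IGFBP3. TATAAA stood in 12% of all 27305 RefSeq promoter windows of this length, ACGTG in 21.6%, GCGTG in 36.3% and TGANTCA in 7.76%. Of the members above the boundary 369 had such a window and of those below 140. TATAAA occurred in 5.15% of the windows above and 6.43% of those below, ACGTG in 24.1% and 27.9%, GCGTG in 50.7% and 47.1%, and TGANTCA in 6.23% and 2.86%. These shares cover only the members with a window and are set side by side with no comparison.

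Levels above the boundary were lower in the knockout library for most genes, and levels below it were lower by less. A gene is called lower or higher when its whole interval lies beyond 1.5-fold. Above the boundary 216 of 488 genes (44.3%) were lower and 23 (4.71%) higher, against 31 (15.5%) and 15 (7.5%) of 200 below. With intervals wholly beyond 2-fold, 6 were lower and 11 higher below, and 46 and 14 above. Over all 13676 genes 10.5% were lower and 9.58% higher by the 1.5-fold rule, and beyond 2-fold 504 were lower and 691 higher. Since the boundary was chosen on these ratios, nothing is read from the difference between these shares.

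The median log2 ratio was -0.65 above the boundary, with quartiles of -0.91 and -0.31, and -0.31 below it, with quartiles of -0.58 and 0.11. These medians are ratios of 0.636 and 0.808, and the difference of the log2 medians was -0.35. On all other chromosomes together the median was -0.00156 and 50.1% of 12988 genes had a ratio under 1. Above the boundary 414 genes (84.8%) had a ratio under 1, and for 249 (51.0%) the ratio lay between 0.5 and 0.75. Below it 140 (70.0%) had a ratio under 1, and for 68 (34.0%) it lay between 0.5 and 0.75. Over all genes 16.9% had a ratio in that range. Scaled by total count, every log2 ratio was 0.08 higher, and 400 genes above and 129 below had a ratio under 1. The part of the chromosome above the boundary gave 4.79% of all wild-type fragments and 3.19% of the knockout fragments, and the part below gave 1.94% and 1.59%.

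**Figure D1:**
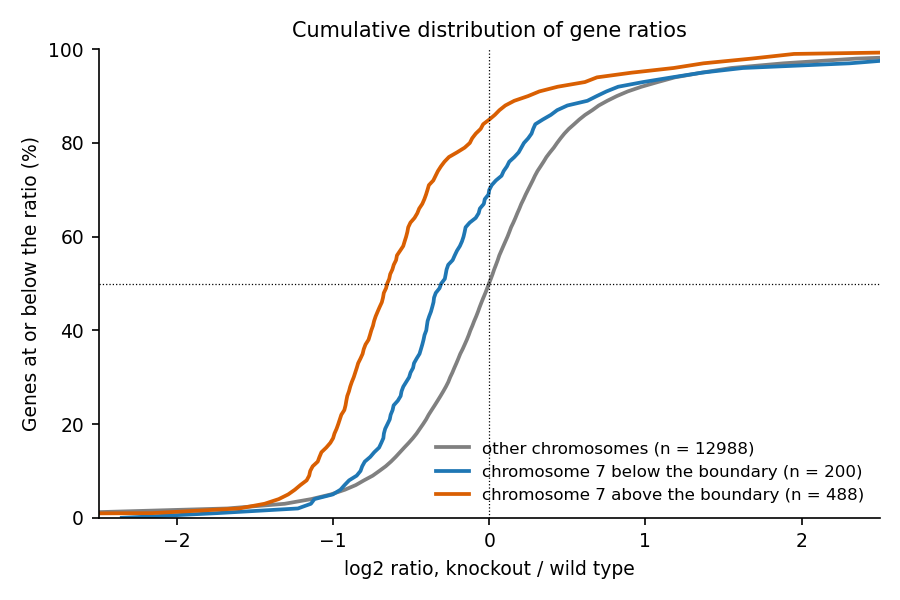
Share of genes (vertical axis, percent) at or below each log2 ratio of knockout to wild type (horizontal axis) for chromosome 7 above the boundary (orange, 488 genes), below it (blue, 200 genes) and all other chromosomes (grey, 12988 genes). The orange curve crosses 50% at -0.65, the blue curve at -0.31 and the grey curve near 0, and the orange curve lies to the left over most of its height.

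In order of position the change was not a single step at 44.8 Mb. The chromosome was divided into 28 blocks of 25 consecutive genes, the last holding 13. The first block, from FAM20C to LFNG (0.193 to 2.55 Mb), had a median of -0.47, and 8 of its genes were lower. The next 2 blocks, from BRAT1 to ANKMY2 (2.58 to 16.6 Mb), had medians of -0.04 and -0.09. Of their 50 genes 26 had a ratio under 1, 4 were lower and 6 higher, so that this stretch resembled the other chromosomes.

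From BZW2 to FKBP9L (16.7 to 55.7 Mb) the block medians lay between -0.51 and -0.27. Of these 150 genes 116 had a ratio under 1, 25 were lower and 10 higher, and their median was -0.35. This intermediate stretch runs across the boundary: the block just below it, ending with ZMIZ2, had a median of -0.28, and the block just above it, beginning with PPIA, a median of -0.36. From ZNF713 to WDR60 (56.0 to 158.6 Mb) the median over 463 genes was -0.66, with 210 lower and 21 higher. These 3 stretches were outlined after the block medians had been seen.

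Beyond 56.0 Mb the blocks stayed between -0.86 and -0.43 up to the end of the chromosome. The lowest median, -0.86, was that of the block from FAM3C to IRF5 (121 to 128.6 Mb), followed by -0.84 from ACN9 to CYP3A5 (96.7 to 99.2 Mb), where all 25 genes had a ratio under 1 and 17 were lower. The highest medians past 56.0 Mb were -0.43 from ABHD11 to POR (73.2 to 75.5 Mb) and -0.47 from DNAJB9 to C7orf58 (108.2 to 120.6 Mb). In all, 15 of the 28 block medians (53.6%) lay below -0.585, a ratio of 1/1.5, and all 15 started at 56.0 Mb or beyond. Scaled by total count or by the upper quartile, 35.7% of the blocks did.

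**Figure D2:**
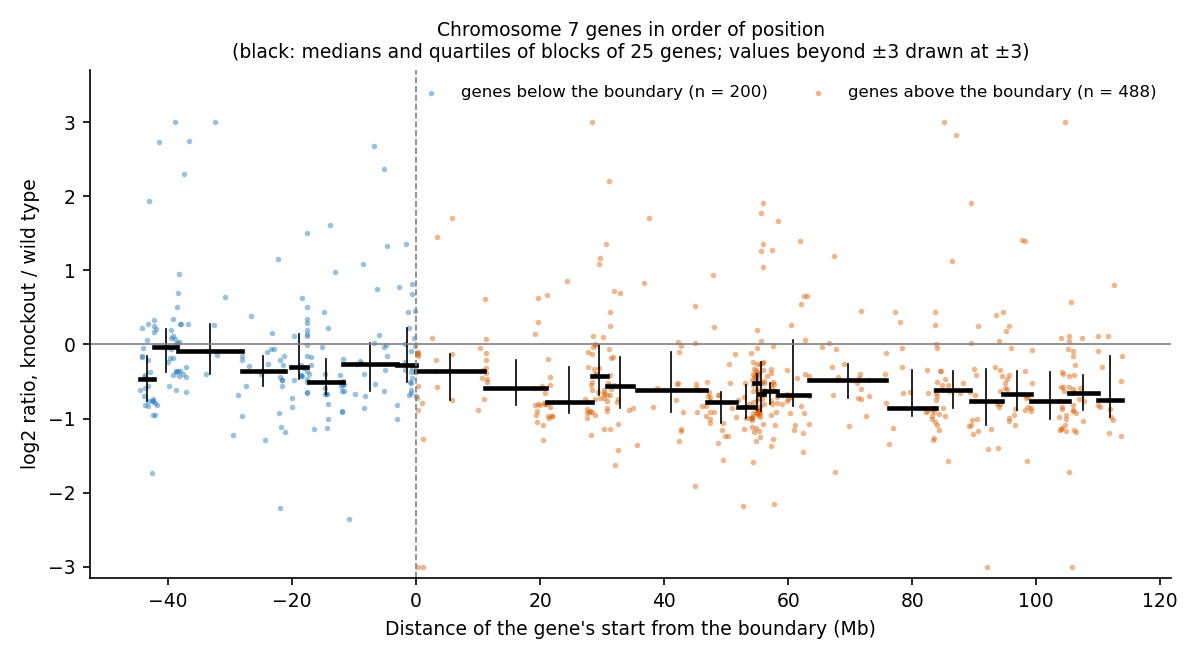
Log2 ratio of knockout to wild type (vertical axis) of each of the 688 genes against the distance of its start from the 44.8 Mb boundary (horizontal axis, Mb), blue below and orange above. Black bars are the medians of blocks of 25 consecutive genes, which reach from -0.04 in the second block to -0.86, and thin black lines are their quartiles.

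The longest stretch without a gene start, 5.24 Mb, lay between ZNF716 at 57.5 Mb and LOC643955 at 62.8 Mb. The position of the centromere was not used here. Between the boundary and this stretch started 33 members, whose median of -0.34 was close to that of the genes below the boundary, and 6 of them were lower. Past the stretch the median of 455 genes was -0.66, and 210 (46.2%) were lower. Divided at this stretch in place of 44.8 Mb, the 233 genes below had a median of -0.31 and 37 were lower.

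When every position with at least 50 genes on each side was tried, the difference of medians was greatest at 15.2 Mb, between ETV1 and AGMO. There 72 genes below had a median of -0.17 and 616 above a median of -0.59, a difference of -0.42. A total of 36 positions between 6.77 and 23.3 Mb came within 0.05 of this value. The position moved with the genes kept, to 56.1 Mb with a minimum of 10 reads and to 64.0 Mb without a minimum. In these data the boundary is therefore a position inside an uneven course and not the place of greatest contrast.

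Of runs of neighbouring genes with ratios on the same side of 1, only the longest of each kind on the chromosome was looked for. As 84.8% of the genes above the boundary had a ratio under 1, a long run there is no separate result. The longest run under 1 held 54 consecutive genes, from CCDC132 at 92.9 Mb to GPC2 at 99.8 Mb, with a median of -0.82. It includes ASNS, MCM7 and PEG10, described below. The longest run over 1 held 4 genes, from RNF216 to PMS2 (5.66 to 6.01 Mb), with a median of 0.10.

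Around the boundary itself, genes of both kinds stood side by side. The 5 nearest genes below were NUDCD3, DDX56, TMED4, OGDH and ZMIZ2. OGDH, a subunit of the 2-oxoglutarate dehydrogenase complex of the citric acid cycle, had 4937 wild-type and 5799 knockout fragments, a ratio of 1.37 (1.32 to 1.42). ZMIZ2, a transcriptional coregulator whose promoter is shown above (hg19 chr7:44788530-44809479), had 8989 and 4737 fragments, a ratio of 0.615 (0.593 to 0.637), and was the only lower gene of these 5. The ratios of NUDCD3, the RNA helicase gene DDX56 and the trafficking gene TMED4 were 1.06, 0.982 and 0.770, and that of DDX56 was over 1 under total count and upper quartile scaling.

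On the other side, the 5 nearest genes were PPIA, H2AFV, PURB, SNHG15 and SNORA9, and all had ratios under 1. PPIA, which encodes the peptidyl-prolyl isomerase cyclophilin A (hg19 chr7:44836241-44842716), had 102657 wild-type and 72138 knockout fragments, a ratio of 0.820 (0.812 to 0.827). H2AFV, a gene of a histone H2A variant, had 15412 and 7985 fragments, a ratio of 0.604 (0.588 to 0.621), and was the lower gene among them. The DNA-binding protein gene PURB had a ratio of 0.925, and SNHG15 and the small nucleolar RNA SNORA9 within its span 0.897 and 0.926. Reads of the last 2 cannot be told apart. The interval of SNORA9, from 68 and 54 fragments, reached from 0.636 to 1.34.

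The most abundant genes per length were counted precisely, and their ratios overlapped between the sides. Below the boundary ACTB, the cytoskeletal beta actin (hg19 chr7:5566779-5570232), led at 2233 wild-type and 1779 knockout RPKM, the authors' depth- and length-normalized read count. Its 346850 and 224288 fragments gave a ratio of 0.754 (0.750 to 0.758). HNRNPA2B1, a splicing factor, had a ratio of 0.825, KDELR2, a receptor that returns proteins to the endoplasmic reticulum, 0.743, the small GTPase RAC1 0.779 and the actin-bundling FSCN1 0.880. ANLN, a scaffold protein of cytokinesis, was the only one called lower, with 43300 and 20549 fragments and a ratio of 0.554 (0.544 to 0.563). Its wild-type level of 105.9 RPKM was the lowest of these 6.

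Above the boundary AKR1B1, an aldose reductase, had the highest wild-type level, 873 RPKM, and 593 RPKM in the knockout library. It was lower, with 104622 and 57684 fragments and a ratio of 0.643 (0.637 to 0.650). HSPB1, a small heat shock protein, followed at 652 and 663 RPKM, with a ratio of 0.962 (0.95 to 0.975), which turned to just over 1 under total count and upper quartile scaling. IGFBP3, a secreted carrier of insulin-like growth factors, was lower, with 69548 and 24660 fragments and a ratio of 0.414 (0.408 to 0.420), and the mitochondrial protein gene CHCHD2 had 0.722.

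Among the 52 genes above the boundary with at least 20000 fragments over both libraries, 51 had a ratio under 1, and 49 under total count or upper quartile scaling. The exception was LAMB1, a laminin chain, with 27332 and 24361 fragments and a ratio of 1.04. The median was -0.85 and 35 were lower. Of 19 such genes below the boundary 15 had a ratio under 1 and 4 were lower, with a median of -0.36. Among all 1166 genes of this abundance 59.9% had a ratio under 1 and the median was -0.08. This minimum was chosen, and LAMB1 named, after the values had been seen.

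**Figure D3:**
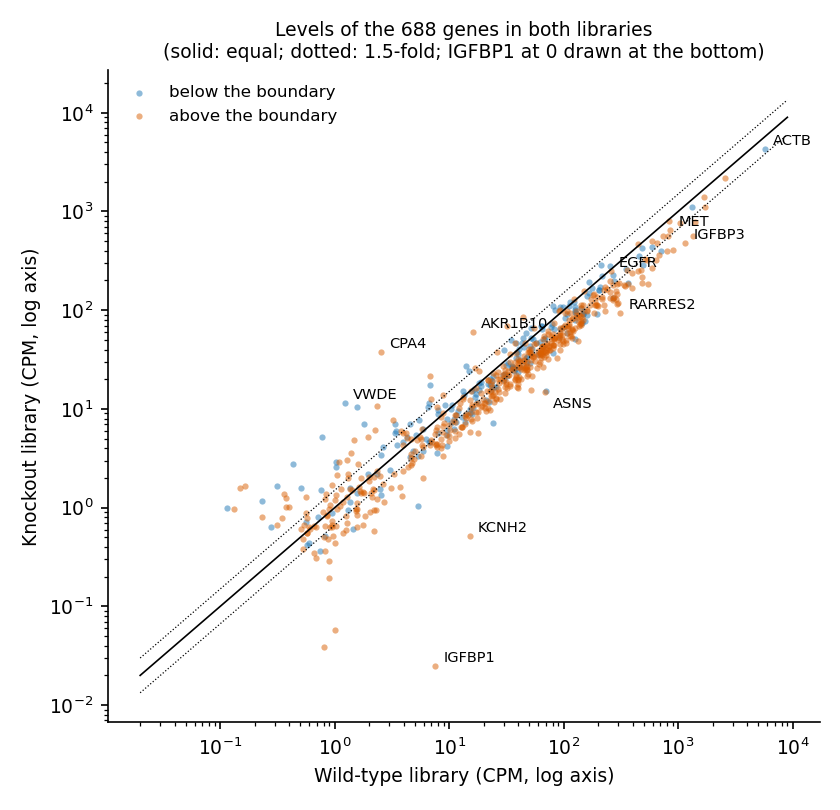
Level of each of the 688 genes in the wild-type (horizontal) and knockout library (vertical), in CPM on log axes, blue below and orange above the boundary, with lines at equality and at 1.5-fold. Orange points gather just under equality at all levels, from the most abundant genes at the top down, and IGFBP1, KCNH2 and CPA4 are among the points farthest from the line.

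Receptors and other signalling genes had shares of lower members close to those of all genes on their side. For this and every later list, those shares were 44.3% above the boundary and 15.5% below it, against 10.5% over all genes. Where a list lies near them, its counts are not read as a trait of the list. Of 23 measured members above the boundary 19 had a ratio under 1, 11 were lower and 3 higher, with a median of -0.62. Of 13 below, 8 had a ratio under 1, 2 were lower and 0 higher, with a median of -0.17. EGFR (hg19 chr7:55086725-55275031), the epidermal growth factor receptor, had 15654 wild-type and 12919 knockout fragments, a ratio of 0.963 (0.94 to 0.985). Under total count and upper quartile scaling this ratio was just over 1. MET (hg19 chr7:116312459-116438440), the receptor of hepatocyte growth factor, had 51880 and 33861 fragments, a ratio of 0.761 (0.751 to 0.772). CDK6, a kinase of the G1 phase, was lower, with 41461 and 18913 fragments and a ratio of 0.532 (0.523 to 0.541). Below the boundary RAC1, the heme-regulated kinase gene EIF2AK1 and the G protein subunit gene GNA12 had ratios of 0.779, 0.779 and 1.15. EGFR was named after its values had been seen, as it had fewer fragments than the 3 leading members of this list.

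IGFBP1 and IGFBP3 are neighbours 1 Mb above the boundary, and both were lower. IGFBP1 (hg19 chr7:45927959-45933267) had 458 wild-type fragments, or 7.55 CPM, and no knockout fragment. Against 3 fragments in the knockout library, taken as a floor, it was 131-fold lower, whereas its exact interval starts at 106-fold. The median of the signalling list is the same with IGFBP1 at either value. No promoter window of IGFBP1 is shown.

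Matrix, secreted and adhesion genes lay on both sides of a ratio of 1. Above the boundary 14 of 21 had a ratio under 1, 9 were lower and 3 higher, with a median of -0.62, and below it 4 of 6 were lower and 1 higher, with a median of -0.90. The share of lower members above was close to the 44.3% of all genes on that side. FLNC, a filamin that cross-links actin, was lower, with 85397 and 40379 fragments and a ratio of 0.551 (0.545 to 0.558). RELN, a secreted glycoprotein known from neuronal migration, was higher, with 413 and 1127 fragments and a ratio of 3.18 (2.84 to 3.57). Below the boundary ITGB8, an integrin beta chain, had 7588 and 2661 fragments, a ratio of 0.409 (0.391 to 0.428). The activin subunit gene INHBA and the tetraspanin gene TSPAN13 were lower at 0.565 and 0.510, whereas FKBP9, a peptidyl-prolyl isomerase of the endoplasmic reticulum, had 0.876.

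Genes of the actin cytoskeleton, caveolae and trafficking had ratios under 1 for 25 of 27 members above the boundary, where 12 were lower and 0 higher (median -0.62). Below it 9 of 10 had a ratio under 1 and 2 were lower (median -0.38). Of all genes 44.3% above the boundary and 15.5% below it were lower, close to the shares of this list. CALU, a calcium-binding protein of the secretory pathway, was lower, with 82308 and 29374 fragments and a ratio of 0.416 (0.411 to 0.422). CALD1, which binds actin and calmodulin, had 48704 and 20638 fragments, a ratio of 0.494 (0.486 to 0.502), and was also lower. CAV1, the main coat protein of caveolae, had 63572 and 39795 fragments and a ratio of 0.730 (0.721 to 0.739), inside 1.5-fold.

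Of the lists with more than 3 measured members on a side, the HOXA cluster at 27.1 to 27.2 Mb was the one with a median over 0. Of its 12 measured members 5 had a ratio under 1, 0 were lower and 1 higher, with a median of 0.13. HOXA3 had 3160 and 2705 fragments and a ratio of 0.998 (0.948 to 1.05), on either side of 1 by the scaling, and HOXA10 had 2643 and 2450 and a ratio of 1.08 (1.02 to 1.14). HOTAIRM1, an antisense RNA of the cluster, had a ratio of 0.783. The higher member was HOXA13, with 62 and 151 fragments and a ratio of 2.84 (2.10 to 3.88), which was named after its value had been seen. Without this list the median below the boundary was -0.32.

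Transcription factors and chromatin genes above the boundary had ratios under 1 for 30 of 30 members, or 29 under total count or upper quartile scaling, with 9 lower and a median of -0.57. Below it 15 of 18 had a ratio under 1, 3 were lower and 1 higher (median -0.39). The list also holds TTYH3, a chloride channel gene. CREB3L2, a membrane-bound transcription factor of the endoplasmic reticulum, had 29129 and 11353 fragments, a ratio of 0.455 (0.445 to 0.465). BAZ1B, a chromatin remodelling subunit of the Williams syndrome interval, had 20428 and 9400 fragments, a ratio of 0.537 (0.524 to 0.550). HIPK2, a nuclear kinase, had a ratio of 0.742. Below the boundary CREB5 was lower at 0.454 and TTYH3 at 0.576, and CBX3, a heterochromatin protein, had 0.749.

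The DNA replication, mitosis and repair list had ratios under 1 for 18 of 18 members above the boundary under every scaling tried. Of these 13 were lower and 0 higher, with a median of -0.80. Below the boundary 9 of 12 had a ratio under 1, 2 were lower and 0 higher, and the median was -0.36. The list also holds proteasome and chaperonin genes and others outside these functions, such as BUD31, TYW1, BRI3 and KIAA1549. Its counts are therefore counts of the list and not of replication, mitosis and repair genes alone. MCM7, a subunit of the replicative helicase (hg19 chr7:99690404-99699427), had 35680 and 14021 fragments, a ratio of 0.458 (0.449 to 0.467). NUDT1, an enzyme that removes oxidised nucleotides, was lower below the boundary, with 1466 and 376 fragments and a ratio of 0.299 (0.266 to 0.335). The chaperonin gene CCT6A and the proteasome gene PSMA2 had ratios of 0.866 and 0.787. Named after their values had been seen, the H3K27 methyltransferase gene EZH2 of the chromatin list had 7322 and 3191 fragments, the condensin II gene NCAPG2 13987 and 5094 and the recombination gene XRCC2 2429 and 1015. Their ratios were 0.508, 0.425 and 0.487, and all 3 were lower.

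Metabolic and mitochondrial genes had ratios under 1 for 31 of 36 members above the boundary, with 18 lower, 2 higher and a median of -0.62. Below it 8 of 9 had a ratio under 1, with 2 lower and a median of -0.49. Of all genes 44.3% above the boundary and 15.5% below it were lower. ASNS, asparagine synthetase (hg19 chr7:97481429-97501854), had 4134 and 780 fragments, a ratio of 0.220 (0.204 to 0.238). AKR1B10, an aldo-keto reductase next to AKR1B1, was higher, with 972 and 3140 fragments and a ratio of 3.77 (3.51 to 4.05), opposite to its neighbour. Reads of such related copies can be shared. Below the boundary the glycyl-tRNA synthetase gene GARS had 16327 and 6947 fragments, a ratio of 0.496 (0.482 to 0.510), cytochrome c, CYCS, 0.714 and the respiratory chain gene NDUFA4 0.761.

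Genes of protein folding, translation and stress had the lowest median above the boundary of the lists, -0.89, with 21 of 22 ratios under 1, 15 lower and 0 higher. Below it 11 of 13 had a ratio under 1, 2 were lower and the median was -0.38. PDIA4, a protein disulfide isomerase, had 54509 and 21045 fragments, a ratio of 0.450 (0.443 to 0.458). EIF3B, a subunit of a translation initiation factor, was lower below the boundary, with 22307 and 9893 fragments and a ratio of 0.517 (0.505 to 0.530). HSPB1, with its ratio of 0.962, belongs to the same list. Some genes stand in several lists, so that the lists are not independent of each other.

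Membrane transport genes were divided above the boundary, where 10 of 17 had a ratio under 1, 9 were lower and 2 higher, with a median of -0.67. KCNH2, a voltage-gated potassium channel (hg19 chr7:150642044-150675402), had 918 and 27 fragments, a 29.2-fold lower level (19.9-fold to 44.5-fold). SLC4A2, an anion exchanger, had 28910 and 13242 fragments, a ratio of 0.534 (0.523 to 0.545), and ABCA13, a transporter of the ABC family, was higher, with 137 and 321 fragments and a ratio of 2.73 (2.23 to 3.36). Only 3 members were measured below the boundary, all with ratios over 1. Of these AQP1, a water channel of the proximal tubule, was higher, with 31 and 82 fragments and a ratio of 3.09 (2.02 to 4.83).

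Innate immunity and interferon genes above the boundary had the median nearest to 0 of the lists on that side, -0.25, with 7 of 13 ratios under 1, 3 lower and 2 higher. Below it 5 of 6 had a ratio under 1, 2 were lower and 1 higher (median -0.68). IL6, the inflammatory cytokine (hg19 chr7:22766766-22771621), had 4241 and 789 fragments, a ratio of 0.217 (0.201 to 0.234). NAMPT, an enzyme of NAD synthesis that is also secreted, had 16354 and 6585 fragments, a ratio of 0.470 (0.456 to 0.483), and ZC3HAV1, an antiviral zinc finger protein, 9220 and 8184 and a ratio of 1.04. SAMD9, an interferon-induced antiviral gene named after its value had been seen, was higher, with 2696 and 4429 fragments and a ratio of 1.92 (1.83 to 2.01).

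The Williams syndrome interval, a contiguous stretch of unrelated genes, had ratios under 1 for 15 of 18 members, with 6 lower, 1 higher and a median of -0.52. EIF4H, a translation initiation factor, had a ratio of 0.761 and LIMK1, a kinase that acts on cofilin, 0.795. VPS37D, a sorting complex subunit, was the higher member, with 10 and 86 fragments and a ratio of 10.0 (5.20 to 21.7), and was named after its value had been seen. Genes that start between 63.8 and 64.8 Mb include 7 with ZNF symbols, zinc finger genes, of which 6 had a ratio under 1 (median -0.82). Of the 26 members with ZNF symbols above the boundary 23 had a ratio under 1 and 11 were lower, with a median of -0.63. Over the whole genome 463 such genes had a median of 0.19. The ZNF symbols were looked at after the ratios were known.

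**Figure D4:**
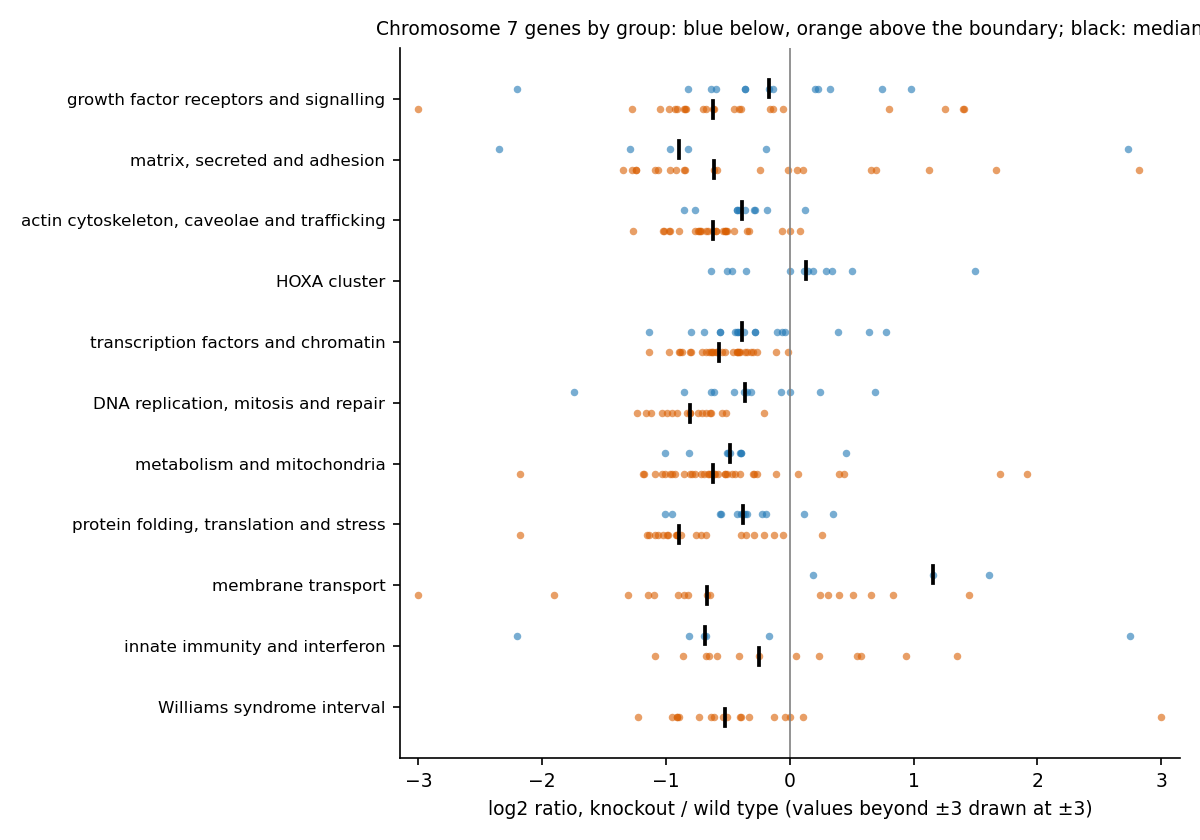
Log2 ratio of knockout to wild type (horizontal axis) of each measured member of 11 gene lists (rows), blue below and orange above the boundary, with the median of each as a black bar. The replication list lies wholly under 0 above the boundary, and the HOXA cluster is centred at 0.13.

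Individual genes departed from the course of their surroundings in both directions. Above the boundary 74 genes had a log2 ratio over 0, and in 24 it was over 1, whereas 83 were under -1. Of 200 genes below, 60 were over 0, 14 over 1 and 11 under -1. On all other chromosomes together 5% of genes were at or below -1.01, and 93% were at or below 1.08. The counts over 1 on both sides, and that under -1 below the boundary, are therefore not read as a trait of these genes. Of chromosome 7 genes reaching 200 reads in one library or more, the largest ratio was that of CPA4, a carboxypeptidase (hg19 chr7:129932974-129964020). It had 154 wild-type and 1948 knockout fragments, a ratio of 14.8 (12.5 to 17.5), inside a block with a median of -0.62. Its promoter, shown above, was the least GC-rich of the 4 windows. SRRM3, a splicing regulator, had 142 and 563 fragments and a ratio of 4.62 (3.84 to 5.6), and PCLO, a presynaptic scaffold, 90 and 253 and a ratio of 3.28 (2.57 to 4.22).

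Genes at the low end above the boundary were, after IGFBP1, KCNH2 and ASNS, RARRES2, TMEM168 and PEG10. RARRES2, which encodes the secreted chemoattractant chemerin, had 18821 wild-type and 4902 knockout fragments, a ratio of 0.304 (0.294 to 0.313). TMEM168, a membrane protein gene, had 3118 and 807 fragments, a ratio of 0.302 (0.279 to 0.326). PEG10, a paternally expressed gene of retrotransposon origin (hg19 chr7:94285637-94299006), had 33190 and 9696 fragments, a ratio of 0.341 (0.333 to 0.349). Its imprinted neighbour SGCE, a sarcoglycan gene named for its place beside PEG10, was lower as well, with 6932 and 2845 fragments and a ratio of 0.479 (0.458 to 0.50).

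Below the boundary the highest ratios came from genes at low wild-type levels. VWDE, a gene of a von Willebrand factor domain protein, had 74 wild-type and 598 knockout fragments, a ratio of 9.43 (7.39 to 12.2). SDK1, a neuronal adhesion molecule, had 95 and 543 and a ratio of 6.67 (5.35 to 8.38), and SFRP4, a secreted modulator of Wnt signalling, 26 and 145 and a ratio of 6.50 (4.26 to 10.3). ICA1, ELFN1 and the ubiquitin ligase gene HECW1 had ratios of 6.77, 3.84 and 2.56. VWDE, SDK1 and ICA1 all start between 2.58 and 16.6 Mb, in the stretch with medians near 0. At the other end, besides IL6, NUDT1, ITGB8 and CREB5, stood BMPER, a secreted modulator of bone morphogenetic proteins, with 324 and 54 fragments and a ratio of 0.194 (0.143 to 0.260), and FAM126A at 0.461.

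At the minimum of 100 reads, or 50 fragments over both libraries, ratios are poorly determined. Just inside it stood STEAP1B with 17 and 33 fragments, PTN with 49 and 2 and CYP3A4 with 32 and 20. Just outside stood DPY19L2P3 with 23 and 23, SHH with 19 and 27 and SH2B2 with 39 and 9. Of genes with at least 500 reads, 8 below the boundary and 12 above were higher, so that many of the higher genes were weakly expressed.

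The genes of both sides had similar medians in most of the properties compared here. Protein-coding genes made up 84.0% below and 85.5% above the boundary, and the median GC content of the longest transcript was 47.6% and 47.7%. Median genomic spans were 33.5 and 25.4 kb. Median wild-type levels, which enter the ratio, were 6.43 and 6.51 RPKM. A transcript was matched for 93.5% and 91.8% of the genes. The promoter windows matched 70.0% and 75.6%, under 80%, so that a comparison by promoter composition is void. Spans that overlap another measured row were found for 26 genes below and 90 above, among them ANLN, INHBA, HECW1, EIF2AK1, EIF4H and MCM7, and reads of such pairs may be shared.

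When both sides were divided into 3 classes of equal size over all genes by abundance, length, genomic span and transcript GC content, and by strand and biotype, the median above the boundary was the lower one in 16 of 16 strata. The differences ranged from -0.22 to -0.51, and the medians above from -0.41 to -0.72. The boundary was chosen on these ratios, and each property divides the same genes again. The strata are therefore not independent, and nothing is read from their count. The least negative median above, -0.41, was that of the least abundant class, and the most negative, -0.72, that of the most abundant class. Among all genes of these 2 abundance classes the medians were 0.15 and -0.08. Length and strand made little difference above the boundary, with medians of -0.65, -0.66 and -0.63 by class of length and of -0.67 and -0.65 on the plus and minus strands.

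Among the 23 chromosomes with measured genes, chromosome 7 had the lowest median, -0.54, and chromosome 12 followed at -0.51. Of the 724 genes of chromosome 12, 248 were lower and 31 higher, against 247 and 38 of the 688 of chromosome 7. Chromosomes 1 and 10 had medians of -0.22 and -0.14, and the highest was that of chromosome 16, 0.20. Of 550 blocks of 25 genes over all chromosomes, 33 had medians below a ratio of 1/1.5, and these were 15 of 28 on chromosome 7, 10 of 29 on chromosome 12, 6 of 55 on chromosome 1 and 2 of 22 on chromosome 10.

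A contrast between parts of a chromosome was not seen on chromosome 7 alone. By the same search for a dividing position, chromosome 10 had the greatest difference, at 15.1 Mb, where the first 58 genes had a median of -0.67 and the other 490 a median of -0.10. Chromosome 7 came next with 0.42 in size, and chromosome 12 had the same 0.42, at 28.4 Mb, with medians of -0.87 for 166 genes below and -0.45 for 558 above. Chromosome X followed at 0.40, chromosome 4 at 0.36 and chromosomes 17 and 1 at 0.35 each, in size. These positions were chosen on the ratios and are descriptions.

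**Figure D5:**
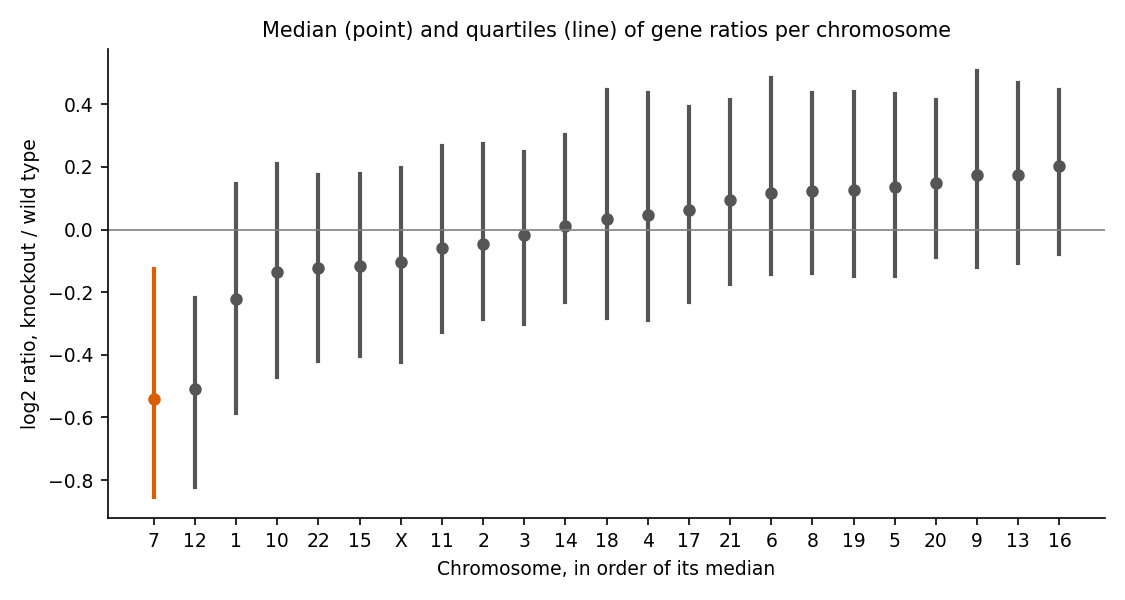
Median (points) and quartiles (lines) of the log2 ratio of knockout to wild type (vertical axis) for the genes of each chromosome (horizontal axis, in order of the median), chromosome 7 in orange. Chromosomes 7 and 12 lie lowest at -0.54 and -0.51, with upper quartiles under 0, and chromosome 16 highest at 0.20.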

How the data were processed

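The submitters deposited, per the file headers, 2 tables of 23398 rows with hg19 coordinates, holding raw read counts and RPKM values. TopHat2 2.0.6, Bowtie and HTSeq are named, per the submitters' processing notes. The sources used here do not give their settings, the annotation release or the use of strand, so reads of a gene and an antisense gene cannot be told apart. Every deposited count was even and was divided by 2 to give fragments. The 23 rows on Y that repeat a gene of X were dropped. RPKM values are quoted as deposited.

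Scaling factors were trimmed means of M values (TMM, edgeR 4.0.16, R 4.3.3) on 16894 genes with at least 10 reads. Ratios carry exact conditional (Clopper-Pearson) 95% intervals (SciPy 1.17.1), and log2 ratios use 0.5 added fragments. No p-value was computed with 1 library per group. The method was tested on simulated data. RefSeq gave biotypes and promoters, and GENCODE gave GC content and strand by symbol.

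Members, boundary and gene lists were chosen with earlier results of these data known. Named genes were the 5 nearest the boundary on each side; on each side the 6 protein-coding genes highest, lowest and most abundant by wild-type RPKM, the first 2 kinds reaching 200 reads in one library and ranked by the interval bound nearest 1; the 3 best-counted members of each list per side; 3 genes on each side of the minimum; and SETD2. Some genes that these rules take are left out. Other names are marked as chosen later. Alternatives were total count, upper quartile and DESeq2 1.42.0 scaling, other minimums, subsets of genes, folds, intervals and block sizes.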

Additional observations from a re-analysis of the deposited data

How the results depend on the processing

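With 1 library per line, counting intervals cannot show variation between cultures, and depth limits genes near the minimum. No paired analysis was possible because each group has 1 library and no replicate number. Over 18 settings the difference of medians lay between -0.40 and -0.33, and neither median nor their difference changed sign. Scaling shifts both medians alike, so it could not change their difference. The other settings reuse genes on whose ratios the boundary was chosen. The median above the boundary moved to -0.58 under total count, to -0.58 under upper quartile scaling and to -0.59 without a minimum of reads. The means were -0.54 above and -0.14 below. The position of greatest contrast moved to 56.1 Mb with 10 or more reads, 64.0 Mb without a minimum, 22.8 Mb for protein-coding genes, 22.6 Mb without the HOXA list, 16.7 Mb without the first 25 members and 22.6 Mb without the members between the boundary and the longest stretch. With at least 500 reads 8 genes were higher below and 12 above. By the fold alone, without an interval, 50 were lower and 23 higher below, and 35 higher above. Beyond 2-fold, 6 were lower and 11 higher below, and 46 were lower and 14 higher above. Over all 13676 genes 504 were lower and 691 higher beyond 2-fold, so the excess of higher genes below is not particular to that side. Of all calls at 1.5-fold over the genome, 47.6% were higher, and 56.5% under total count. Scaling moved the median of all genes by at most 0.08. Over 3 other scalings 6 of 264 values of 88 named genes changed sign, those of DDX56, HSPB1 and HOXA3 under total count and upper quartile, none of them called, and 117 moved beyond their interval, by at most 0.08. Genes named after their values had been seen, EGFR among them, were outside this count. Undivided reads, overlapping or uncertain members, the centre on other chromosomes and the subsets by region were chosen after seeing the data. The cause of these moves was not tested.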
